A study of Strongylocentrotus droebachiensis with 6 samples.

Results

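The Hox genes hox1 and Hbox7 of the sea urchin Strongylocentrotus droebachiensis were followed in half-size and intact embryos that had reached the mesenchyme blastula. They were chosen by name and were 2 of the 31261 rows of the deposited expression table. Hox genes encode transcription factors with a DNA-binding homeodomain that assign regional identity along body axes. In Strongylocentrotus purpuratus, the related species whose gene identifiers the table uses, most genes of the Hox cluster are known for their use in the adult body rather than in the embryo. There, hox1 belongs to the anterior class and Hbox7 to the posterior, Abdominal-B class, and Hbox7 is known to be transcribed early, in vegetal cells that contribute to the hindgut.

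Polyadenylated RNA was sequenced from 3 samples of half-size embryos and 3 samples of intact control embryos, all wild type. For the half-size embryos, fertilised eggs were kept in aminotriazole (ATA, 1 mM) so that the envelope stayed soft, and the blastomeres were parted 3.5 hours after fertilisation, at the 2-cell stage, by 15 min in seawater free of calcium and magnesium and passage through a needle. Embryos of both groups were raised at 8 °C to 46 hours after fertilisation; the labels do not state separately whether the controls also went through ATA and the wash. The labels name the source both as tissue explants and as embryos, and the study's design text calls the half-size and intact embryos siblings.

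Recovered reads ran from 1804336 to 2294541 in half-size and from 2092936 to 2284097 in control libraries, with 3 libraries in each group. Markers of the skeletogenic mesenchyme, which ingresses at this stage, were present in every library, with a summed normalised read count over 9 genes of 4254 to 11479 in half-size and 4202 to 8404 in control embryos. The libraries fell into 3 pairs, each of 1 half-size and 1 control library that deviated alike from their group means (r = 0.76, 0.63 and 0.52 over 11129 rows). These are called pairs A, B and C; they were found in the values, they coincide with neighbouring columns of the table, and no label states them. Values are listed in the order A, B, C throughout.

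The hox1 transcript was at a lower level in half-size than in control embryos. In normalised read counts, which are the deposited reads divided by the authors' size factor of each library, it had 65.4, 66.9 and 48.5 in half-size embryos, against 144, 186 and 136 in control embryos. Every half-size library lay below every control library, and the lowest control lay 69.0 normalised counts above the highest half-size value. The half-size mean was 60.3 ± 10.2 and the control mean 155 ± 26.9 (SD, n = 3 each), so that the half-size mean was 38.8% of the control mean. Such counts are relative to each library and give no amount per embryo. On the log2(value + 1) scale the difference, half-size minus control, was -1.35 in limma-trend (SE 0.24; SE 0.17 with the pair in the model). Within the pairs it was -1.13, -1.46 and -1.47. In whole embryos, fewer cells that transcribe a gene and less of its RNA per cell cannot be told apart.

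The difference was smaller for Hbox7, a contrast between the genes that was not tested. Hbox7 had 646, 650 and 659 normalised read counts in half-size embryos, against 822, 799 and 676 in control embryos. The half-size values were nearly equal, and the controls of pairs A and B lay well above them while the control of pair C lay only 17.1 normalised counts above the highest half-size value. The half-size mean was 652 ± 6.80 and the control mean 766 ± 78.3 (SD, n = 3 each), which puts the half-size mean at 85.1% of the control mean. The log2 difference was -0.23 (SE 0.17; SE 0.12 with the pair in the model), with -0.35, -0.30 and -0.04 within the pairs.

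**Figure D1:**
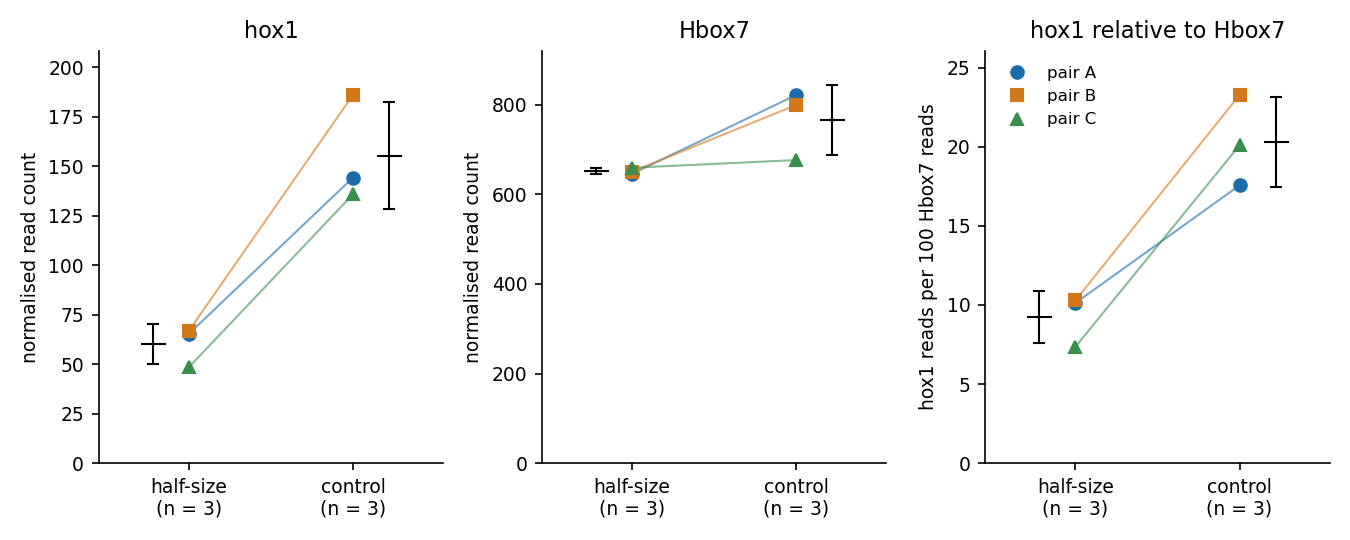
Normalised read counts of hox1 and Hbox7 and the number of hox1 reads per 100 Hbox7 reads, in half-size and control libraries. Points joined by a line belong to 1 pair, and the black bars give the mean ± SD of 3 libraries. The hox1 values sit between 48.5 and 66.9 in half-size and between 136 and 186 in control embryos, while the Hbox7 values of pair C, 659 in half-size and 676 in control, nearly meet.

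These differences are what brought both genes to attention, so they are given as descriptions with no test. The fold change of hox1 in the authors' deposited table was -1.36 on the log2 scale (SE 0.30, adjusted p = 0.0274). At an adjusted p under 0.05, hox1 was the single row lower in half-size embryos (0.00417% of 23976 rows), and 3 rows were higher (0.0125%). For Hbox7 the authors' fold change was -0.23 (SE 0.20, adjusted p = 1.00). In the fits run here hox1 did not pass in limma-trend or edgeR without the pair, each of which called 0% of the 18016 rows lower. In DESeq2 without the pair hox1 passed, as the single row called lower (0.00556% of 17997 rows). With the pair in the model hox1 passed in limma-trend (adjusted p = 0.0469, 0.0111% of all rows lower). It also passed in DESeq2 (adjusted p = 0.00119, 0.0389%) and edgeR (adjusted p = 0.000356, 0.0944%). With the pair and edgeR's own stricter filter on low counts, the adjusted p of hox1 was 0.0371 (0.0264% of all rows lower). None of these p-values is a test of hox1, which was chosen with its difference known. Of the 18016 rows whose mean value reached 1, 0.5% had a log2 difference at or below that of hox1, and 24.9% had one at or below that of Hbox7. Among rows whose mean reached 10 these shares were 0.0988% and 17.9%. Groups that did not overlap, with half-size lower, occurred in 2.84% of the 18016 rows, hox1 and Hbox7 among them.

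The reads behind the values set how closely each gene was measured. For hox1 there were 66, 76 and 40 reads in the half-size libraries and 141, 216 and 136 in the control libraries. The highest half-size count, 76, had an exact Poisson 95% interval of 59.9 to 95.1 reads, and the lowest control count, 136, one of 114 to 161 reads; these intervals cover counting error only. For Hbox7 the libraries held 652, 739 and 544 reads in half-size and 803, 928 and 677 in control embryos. The coefficient of variation of hox1 between libraries was 17.0% in half-size and 17.3% in control embryos, where counting alone gives about 12.8% in half-size and 7.80% in control libraries. For Hbox7 it was 1.04% in half-size embryos, below the 3.94% that counting alone gives, and 10.2% in controls, above the 3.53% of counting.

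With total-count scaling the groups stayed apart for hox1 and not for Hbox7. As counts per 1000000 reads (CPM), hox1 had 29.8, 33.1 and 22.2 in half-size and 67.4, 94.6 and 64.5 in control libraries, with no overlap. Hbox7 had 294.6, 322.1 and 301.5 CPM in half-size and 383.7, 406.3 and 320.9 in control libraries. On that scale the half-size library of pair B lay above the control library of pair C, so the groups overlapped.

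The ratio of the genes within a library is free of any such scaling. There were 10.1, 10.3 and 7.35 hox1 reads per 100 Hbox7 reads in half-size embryos, against 17.6, 23.3 and 20.1 in control embryos. The groups did not overlap, with a mean of 9.25 ± 1.65 in half-size and of 20.3 ± 2.86 in control embryos (SD, n = 3 each). Since hox1 was chosen with its difference known and Hbox7 differed less, this gap largely restates the difference of hox1 and is no test of it. The log2 difference of this ratio was -1.14, with -0.79, -1.18 and -1.45 within the pairs. The ratio compares groups; since the genes' lengths are not used here, it does not say which gene had more transcripts.

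For hox1 the group, and not the pair, held most of the spread among libraries. Both genes were taken up with their group difference known, so a high group share restates that difference and is no test of it. Of the sum of squares of its log2 values, the group took 91.8%, the pair 6.91% and the rest 1.25%. For Hbox7 the group took 62.4%, the pair 15.2% and the rest 22.4%. Over the 11129 rows whose mean reached 10 the medians were 6.45% for the group and 65.5% for the pair, and 17 of these rows had a larger group share than hox1 and 293 a larger one than Hbox7. One of the 17 was the Iroquois homeobox gene IrxA, whose group share was 92.0%.

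Other homeobox genes were taken from 4 symbol lists (Hox cluster, TALE, ParaHox and Hox-linked, and other homeobox genes), and 17 besides hox1 and Hbox7 stood in the table. Of these, 16 had a mean value of at least 1. The exception was lox, which bears the name of a ParaHox gene, with 0 normalised counts in all 3 half-size libraries and 3.07, 0.861 and 0 in the controls. The Hox list matched no symbol besides hox1 and Hbox7, so the other genes of the cluster were not analysed here. All lists were matched by symbol. Of the 31261 rows, 30889 carry LOC identifiers and no gene name, so any homeobox genes among those rows were not counted.

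Of the 16 measured genes, 12 had lower and 4 higher values in half-size embryos, with a median log2 difference of -0.35. Over all 18016 rows tested, 50.1% had lower values and the median was -0.000467. In limma-trend across all rows 0 of the 16 passed at an adjusted p under 0.05, as did 0% of all rows (unadjusted, 1.34% were under 0.05; edgeR without the pair also called 0% of all rows, with 1.17% under 0.05 unadjusted). With the pair in the model, limma-trend again called 0 of the 16 (0.0111% of all rows lower), DESeq2 called 1 lower (0.0389% of all rows lower) and edgeR 3 lower (0.0944% of all rows lower). Of the 16, 3 had groups that did not overlap with half-size lower, which holds for 2.84% of all rows, and for 8 the half-size library was the lower one in all 3 pairs, which holds for 12.1% of all rows. Among the 18 homeobox genes matched by symbol, hox1 had the lowest difference and Hbox7 the twelfth lowest. The median share of the sum of squares taken by the group was 29.0% over the 16 other homeobox genes and that taken by the pair 55.3%, so the group shares of this list lay above those of all rows. For Dlx the group took 62.1%, close to the share for Hbox7.

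The 3 lowest after hox1 were genes of ectoderm territories. NK2.1, a gene of the apical neuroectoderm, had 66.4, 123 and 201 normalised counts in half-size and 187, 211 and 363 in control embryos. Its groups overlapped, with the half-size value of pair C above the control of pair A, and its log2 difference was -1.03 (SE 0.39). It fell with the pair in the model in DESeq2 (adjusted p = 0.0115) and edgeR (adjusted p = 0.00517), and not in limma-trend (adjusted p = 0.121). Dlx, a distal-less gene, had 40.6, 54.6 and 70.3 in half-size and 70.6, 120 and 148 in control embryos, a log2 difference of -0.99 (SE 0.33). The lowest Dlx control lay just above the highest half-size value. IrxA, an Iroquois gene of the aboral ectoderm, had 92.1, 80.1 and 76.4 in half-size and 130.0, 149 and 161 in control embryos, and its groups were clear of each other, with a log2 difference of -0.81 (SE 0.21). Dlx and IrxA fell in edgeR with the pair in the model (adjusted p = 0.0145 for Dlx and 0.0499 for IrxA), and in limma-trend with the pair their adjusted p was 0.155 for Dlx and 0.314 for IrxA. With edgeR's own stricter filter on low counts, 0 of these 3 genes passed (adjusted p = 0.0924 for NK2.1 and Dlx and 0.224 for IrxA), as against 0.0264% of all rows lower.

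The highest differences were those of eve, Lim1 and Alx1. The even-skipped gene eve, known in S. purpuratus from vegetal cells next to the future endoderm, had 703, 1253 and 1292 normalised counts in half-size and 589, 1233 and 804 in control embryos, a log2 difference of 0.32 (SE 0.31). Lim1, a LIM-class homeobox gene, had a log2 difference of 0.20 (SE 0.22). For Alx1, a regulator of skeletogenic cell fate, it was 0.11 (SE 0.36). None of these 3 passed in any of the tests run with or without the pair.

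**Figure D2:**
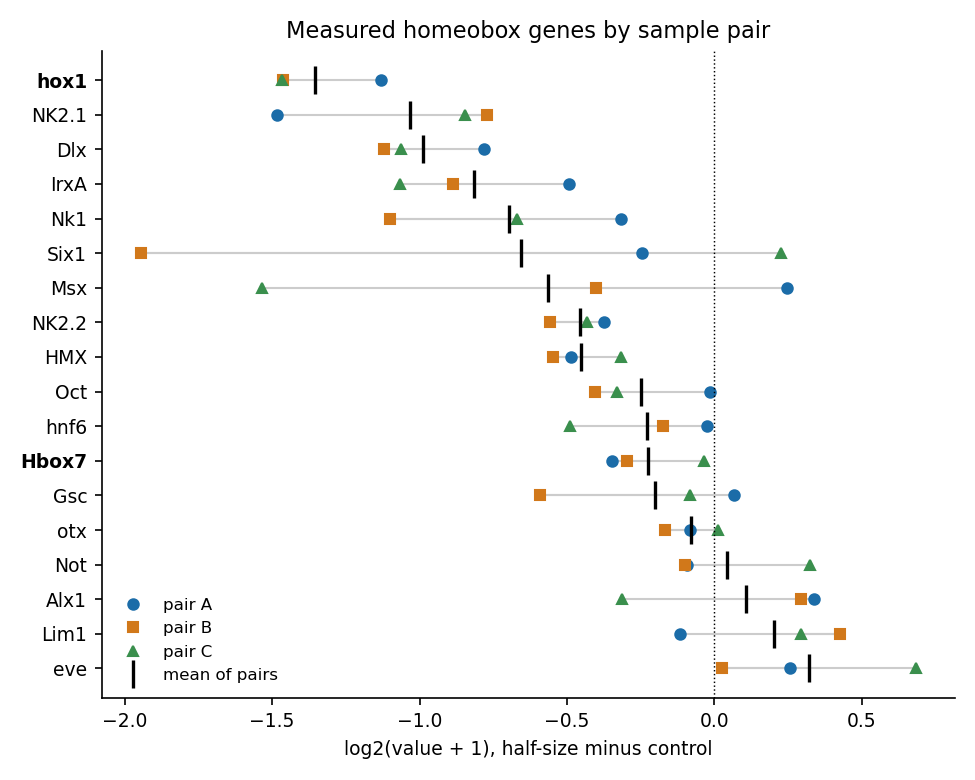
Log2 difference, half-size minus control, of the 18 measured homeobox genes on the log2(value + 1) scale. Coloured points are the 3 pairs and the black tick is their mean, and genes run from the lowest mean at the top to the highest. The 3 points of hox1 lie between -1.13 and -1.47, and those of Hbox7 between -0.35 and -0.04.

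Genes of the vegetal endoderm network in which Hbox7 is placed in S. purpuratus did not differ in 1 direction. Of 9 matched members, hh did not reach a mean of 1, and of the other 8, 4 had lower and 4 higher values in half-size embryos, with a median log2 difference of -0.03. Leaving out pair C's half-size library made 2 of the 8 lower, and leaving out its control library 6. In limma-trend 0 of the 8 were called lower without the pair (0% of all rows) and with it (0.0111% of all rows), and with the pair 0 were called lower in edgeR (0.0944% of all rows) and in DESeq2 (0.0389% of all rows). With so few calls among all rows, a count of 0 among 8 is no result about the endoderm genes. The endoderm transcription factor gene GATAe had 268, 210 and 162 normalised counts in half-size and 317, 298 and 302 in control embryos, a log2 difference of -0.54 (SE 0.22). Of the 8, it alone had groups that did not overlap with half-size lower, which holds for 2.84% of all rows. FoxA, a forkhead regulator of endoderm, differed by -0.22 (SE 0.31) and Endo16, a gut marker, by 0.03 (SE 0.40). The ligand genes Wnt8 and wnt1 differed by 0.22 (SE 0.26) and 0.12 (SE 0.25), delta, a Notch ligand gene, by -0.14 (SE 0.24), and otx by -0.08 (SE 0.16).

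Markers of other territories were set beside the members. Of 9 aboral ectoderm markers, cyiiib was listed at 0 in every library, and of the other 8, 6 had lower and 2 higher values in half-size embryos, with a median log2 difference of -0.51. Groups of 2 of the 8, Dlx and IrxA, did not overlap, with half-size lower (2.84% of all rows), and for 4 the half-size value was the lower one in each of the 3 pairs (12.1% of all rows). Dlx and IrxA were also the 2 called lower by edgeR with the pair in the model (0.0944% of all rows), while limma-trend and DESeq2 with the pair called 0. Dlx, IrxA, HMX and Msx stand in the homeobox lists too, so both counts share them. The summed level of the aboral markers, 4138 to 7771 normalised counts in half-size and 4582 to 5657 in control embryos, was made up mostly of the calcium-binding protein genes SPEC1 and spec2c. These differed by 0.21 (SE 0.27) and 0.16 (SE 0.35) on the log2 scale, and pair A carried both differences, with 0.56, -0.02 and 0.08 within the pairs for SPEC1 and 0.57, -0.05 and -0.06 for spec2c.

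Of the 9 skeletogenic mesenchyme markers, 8 had log2 differences between -0.15 (erg) and 0.21 (P16). The other, dri, an ARID-class transcription factor gene singled out after its values were seen, had 149.6, 74.8 and 95.7 normalised counts in half-size and 345, 156 and 249 in control embryos. Its groups did not overlap (2.84% of all rows with half-size lower), the control of pair B lying just above the half-size value of pair A. Its log2 difference was -1.21 (SE 0.34). With the pair in the model dri fell in limma-trend (adjusted p = 0.0469, 0.0111% of all rows lower). It also fell in DESeq2 (adjusted p = 0.000305, 0.0389%) and edgeR (adjusted p = 0.000372, 0.0944%). With edgeR's stricter filter its adjusted p was 0.0371 (0.0264% of all rows lower). It did not pass in limma-trend without the pair (adjusted p = 1.00).

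The 2 markers of other mesoderm, gcm and GATAc, summed to 362 to 953 normalised counts in half-size and 539 to 960 in control embryos, and within the pairs the log2 difference of the sum was -0.01, -0.28 and -0.57. The 9 oral ectoderm and apical markers differed by -1.03 (NK2.1) to 0.61 (foxq2), and their sums were 2637 to 3774 in half-size and 2714 to 3966 in control embryos. The 9 vegetal endoderm genes summed to 10098 to 12643 in half-size and 10243 to 12302 in control embryos. The part of any of these cell types in the levels of hox1 and Hbox7 was not tested.

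Likeness of pattern was measured as Pearson's r of log2(value + 1) over the 6 libraries, among 11128 other rows with a mean of at least 10. It is a description: with 6 libraries and this many rows some high values arise in any case, and genes that part the groups as hox1 does are favoured. Between hox1 and Hbox7 r was 0.810, and after the mean of each group was removed it was 0.304. The 5 rows most like hox1 had r between 0.948 and 0.992 and log2 differences between -0.72 and -0.43. First among them was LOC763789, which the table pairs with no name, with 10.9, 10.6 and 9.70 normalised counts in half-size and 16.4, 18.9 and 17.0 in control embryos. The row least like hox1, LOC580450, had r = -0.996, with 12.9, 12.3 and 18.2 in half-size and 6.14, 5.17 and 6.99 in control embryos. Both rest on few reads.

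Among the 190 other rows with a gene name, IrxA was most like hox1 (r = 0.944), followed by suPaxB (0.920), GATAe (0.856), Hbox7 (0.810) and Oct (0.758). This order depended on the group difference. After the mean of each group was removed, r was 0.307 for IrxA, 0.820 for suPaxB, 0.563 for GATAe, 0.304 for Hbox7 and 0.987 for Oct. The Pax-family gene suPaxB had 566, 602 and 550 normalised counts in half-size and 684, 869 and 670 in control embryos. As with hox1, its highest control was that of pair B and its lowest half-size value that of pair C. The named genes least like hox1 were FSCN1, which encodes the actin-bundling protein fascin (r = -0.830), eif4a, a translation initiation factor gene (-0.810), and etg (-0.750). With group means removed r was -0.789 for FSCN1, 0.379 for eif4a and -0.757 for etg. FSCN1 had 1958, 2356 and 2612 in half-size and 1843, 1699 and 2095 in control embryos, with overlap between the groups.

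The 5 rows most like Hbox7 had r between 0.962 and 0.985 and log2 differences between -0.50 and -0.20. The first, LOC590362, had 24.8, 23.8 and 26.7 normalised counts in half-size and 45.0, 37.9 and 27.0 in control embryos. Its near-equal half-size values and low control of pair C resemble those of Hbox7, which follows from its choice by the highest r. The row least like Hbox7 was a glycine transfer RNA, trnag-gcc (r = -0.985), with 17.8, 16.7 and 15.8 in half-size and 9.21, 9.47 and 17.0 in control embryos. Among named genes hox1 came first (0.810), followed by suPaxB (0.791), GCF1, which encodes a DNA-binding protein (0.762), the NK-class homeobox gene Nk1 (0.747) and SRCR12, a gene of scavenger receptor type (0.720). The lowest were etg (-0.864), eif4a (-0.812) and FSCN1 (-0.739), the same 3 names as for hox1. The list of 5 named genes shared suPaxB with that of hox1, besides hox1 and Hbox7 themselves.

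**Figure D3:**
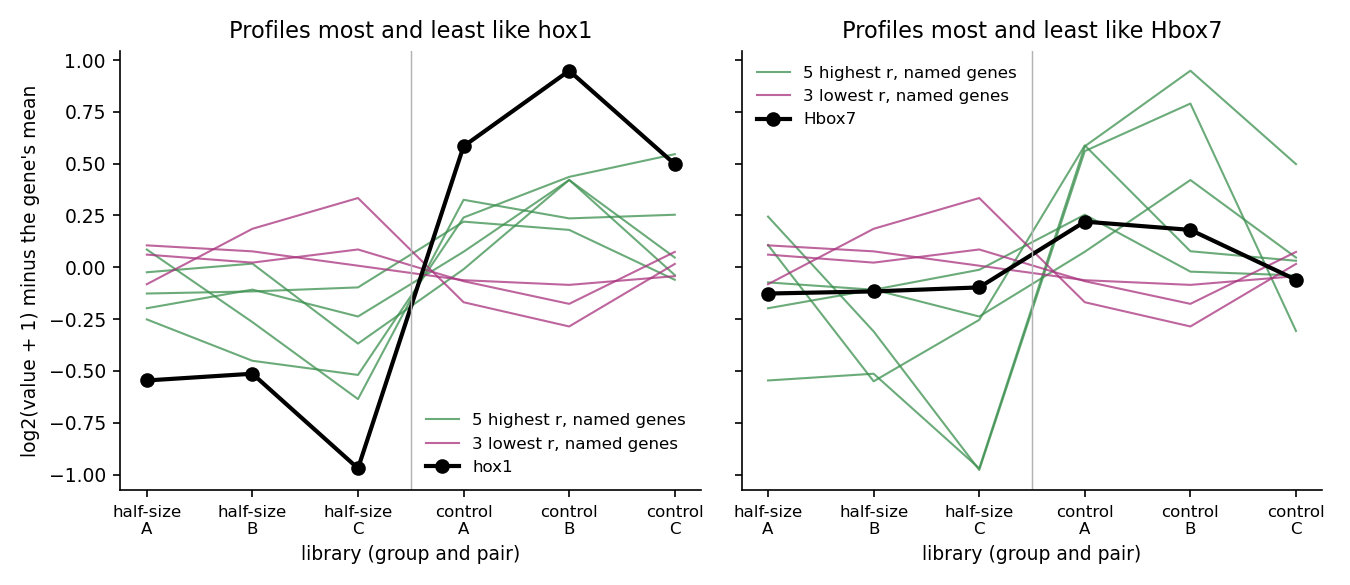
Log2(value + 1) minus the gene's own mean over the 6 libraries, for hox1 (left) and Hbox7 (right) in black, with the 5 named genes of highest r in green and the 3 of lowest r in purple. Half-size libraries stand to the left of the grey line and control libraries to the right. The black line of hox1 keeps its half-size and control libraries apart, and that of Hbox7 is flat over the half-size libraries and lowest among controls in pair C.

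With all 6 libraries kept, 12 other processing settings moved the estimates little. There hox1 lay between -1.395 and -1.297 and Hbox7 between -0.268 and -0.226 on the log2 scale. Over 21 alternatives, which also leave out single libraries or pairs, the log2 difference of hox1 lay between -1.47 and -1.21. That of Hbox7 lay between -0.32 and -0.17. For Hbox7 both ends of that range came from leaving out a pair, -0.17 without pair A and -0.32 without pair C.

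**Figure D4:**
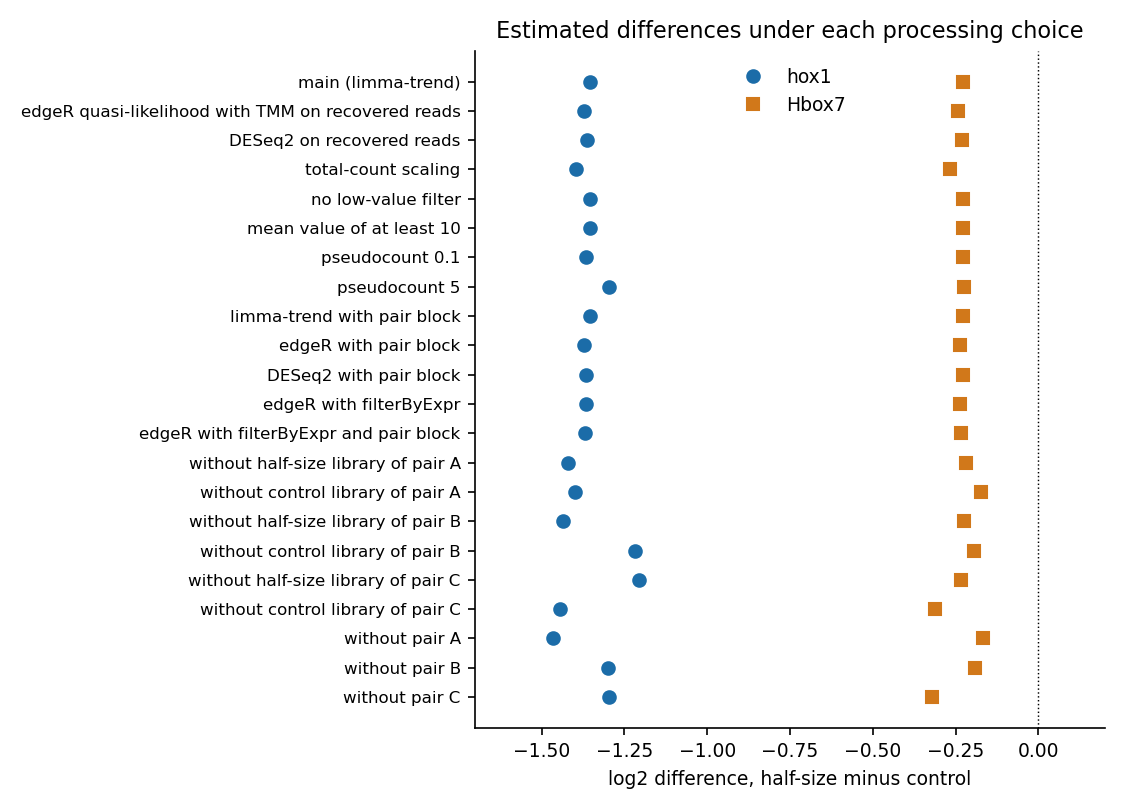
Log2 difference, half-size minus control, of hox1 and Hbox7 as first fitted and under each of 21 alternatives, named on the vertical axis. The alternatives include leaving out single libraries or pairs. All hox1 estimates lie between -1.47 and -1.21 and all Hbox7 estimates between -0.32 and -0.17, and the dotted line marks no difference.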

How the data were processed

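The members, the gene lists and the tests were chosen with earlier results of these data known. Tools listed in the submitters' processing notes, without their roles, are Bowtie2 (2.2.2), edgeR and DESeq. Per the file headers, identifiers follow the NCBI annotation of Spur_4.2, an assembly of S. purpuratus, so reads were counted against another species' genes. The sources used here do not give the counting program or its strand setting, and reads of overlapping or near-identical genes cannot be separated. No genome, gene-name table or sequence was used.

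The deposited signal is a read count that the authors divided by a size factor per library; 100% of values were whole multiples of their column's step within 1e-06, so reads could be recovered. The authors' log2 fold changes, test score (fold change over its error) and p-values are in the same table, per the file headers. Column names repeat within a group, so columns carry a group and no replicate number. The labels do not say whether replicates had different parents, so p-values reflect only the spread among these samples.

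Because the values are scaled and not raw counts, log2(value + 1) was fitted with limma-trend (R 4.3.3, limma 3.58.1) as the main fit, with rows of a mean of at least 1, Benjamini-Hochberg adjustment over all of them and a threshold of 0.05. It understates changes of weakly expressed genes. edgeR 4.0.16 and DESeq2 1.42.0 ran on recovered reads. Fits with the pair as a block take the pairing as known, although it was chosen from the values. Totals did not differ detectably (two-sided exact permutation p = 0.9, smallest possible 0.1).

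Named genes were the members, per member the 5 highest and 3 lowest r among all rows (of which IDs without a name are printed sparingly) and among named rows, all measured Hox, TALE, ParaHox and vegetal endoderm genes, and the 3 highest and 3 lowest differences of the homeobox lists. Symbols were matched without regard to case.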

Additional observations from a re-analysis of the deposited data

How the results depend on the processing

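The replicate block rests on pairs found in the values, since the columns carry no replicate number. The count of 0 called rows in limma-trend stayed at 0 in edgeR and under every scaling, filter and pseudocount tried, and without each library (range 0 to 0) or pair. DESeq2 called 4. Under the replicate block limma-trend called 3, DESeq2 22 and edgeR 58; the cause was not tested. edgeR with filterByExpr, chosen after seeing the data, called 0, or 11 with the block. hox1 ran from -1.44 to -1.21 and Hbox7 from -0.31 to -0.17 without single libraries, and neither changed direction under any of 21 alternatives. The homeobox list had 11 to 13 lower members in all of 22. The vegetal endoderm list had 2 to 6 without single libraries, with 2 of 8 when that of half-size pair C was left out, and 4 of 10 once blimp1/krox and Tcf/Lef, matched after seeing the data, were added. The r of hox1 with Hbox7, 0.810, ran from 0.715 (without the control library of pair B) to 0.933 (without that of pair C), was 0.814 with pair means removed and 0.304 with group means removed, the last added after seeing the data. Depth limits hox1 to 40 to 216 reads a library.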
